A study of Mus musculus with 16 samples.

Results

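The granulopoiesis transcription factors described here were Cebpa, Cebpb, Cebpd, Cebpe, Gfi1, Spi1, Irf8, Runx1, Klf2 and Myb. These 10 of the 49315 genes counted were chosen by name, with earlier results of these data known, and read in every library. Neutrophils were sorted as Ly6G+, CD11b+ and CD45.2+ cells from the blood or lungs of male mice aged 8 to 12 weeks, either WT or αD KO, a line that lacks the integrin chain αD (CD11d, gene Itgad). Mice were naive (0h, no treatment) or were taken 12 hours after cecal ligation and puncture (CLP), a surgical model of polymicrobial abdominal sepsis. Genotype, tissue and time gave 8 groups of 3 RNA-seq libraries, 24 in all, and 5753476 to 29984954 counts were assigned to genes per library. Each group had 2 GEO samples: 2 count files belong to the first (libraries 1a and 1b below) and 1 to the second (library 2). The labels do not say whether libraries came from separate mice or from pools, so p-values measure the spread between libraries, which may be partly technical. Levels are CPM, read counts relative to a library of fixed size, adjusted with TMM factors for differences in library composition, and are given in the order 1a, 1b and 2.

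Neutrophils arise from granulocyte-monocyte progenitors. PU.1 (Spi1) and C/EBPα commit progenitors to the myeloid lineage, IRF8 favours monocytes and dendritic cells over granulocytes, and GFI1 represses the monocyte programme. C/EBPε then drives the late steps in which specific and gelatinase granule proteins are made, while C/EBPβ takes over from C/EBPα in emergency granulopoiesis, the accelerated output of neutrophils during infection. MYB maintains proliferating progenitors and is normally silenced in mature cells, RUNX1 is required earlier in hematopoiesis, and KLF2 is a quiescence and trafficking factor of leukocytes and endothelium.

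Some libraries went against their labels or stood apart. Itgad, the deleted gene, was at most 4.08 CPM in any WT library and at least 12.6 CPM in each one labelled αD KO, so the gene-level count went against the label, and which exons the allele lacks is not given in the sources used here. All genotype directions below rest on the labels. The 8 neutrophil markers (S100a8, S100a9, Ly6g, Csf3r, Cxcr2, Retnlg, Mmp8 and Il1r2) summed to 33700 to 185000 CPM over the 24 libraries, and each had counts in every group. The 1b libraries detected 29162 to 38844 genes against 17132 to 32666 in the others. The library labelled αD KO blood 0h, library 2, had a summed T and NK cell marker level of 313 CPM, against 9.62 to 28.4 CPM in the other 23 libraries. The summed eosinophil and basophil markers were 78.0, 72.5 and 3.02 CPM in the lung libraries labelled αD KO 0h and 59.1, 15.0 and 85.3 CPM in those labelled αD KO 12h, whereas they were 65.8 to 119 CPM in WT lung at 0h and 3.36 to 25.5 CPM at 12 hours. By this measure library 2 of the αD KO lung 0h label lay with the 12 hour libraries, and libraries 1a and 2 of the αD KO lung 12h label lay with the baseline ones.

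Promoters are shown for Cebpb, Klf2 and Cebpa, the 3 factors with the largest fitted excess of lung over blood in WT at 12 hours (values below). Sequences are from RefSeq (GRCm38.p6), from 250 bases before to 50 bases after the gene's start, and capitals mark the letters TGACG on either strand, the core of the cAMP response element (CRE). The Cebpb window is chr2:167688665-167688964, the Klf2 window chr8:72318812-72319111 and the Cebpa window chr7:35119043-35119342, all on the plus strand.
Cebpb: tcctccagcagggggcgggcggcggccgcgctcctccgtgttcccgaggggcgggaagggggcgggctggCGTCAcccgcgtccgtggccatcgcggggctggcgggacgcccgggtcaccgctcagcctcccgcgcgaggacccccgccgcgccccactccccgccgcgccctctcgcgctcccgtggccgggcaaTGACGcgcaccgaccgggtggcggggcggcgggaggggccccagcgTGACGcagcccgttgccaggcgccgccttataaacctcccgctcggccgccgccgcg
Klf2: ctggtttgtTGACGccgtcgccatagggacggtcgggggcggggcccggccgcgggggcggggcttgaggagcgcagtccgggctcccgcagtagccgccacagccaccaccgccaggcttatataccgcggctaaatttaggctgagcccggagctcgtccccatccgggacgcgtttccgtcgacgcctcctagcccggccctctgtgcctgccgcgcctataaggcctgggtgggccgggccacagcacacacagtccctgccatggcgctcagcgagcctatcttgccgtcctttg
Cebpa: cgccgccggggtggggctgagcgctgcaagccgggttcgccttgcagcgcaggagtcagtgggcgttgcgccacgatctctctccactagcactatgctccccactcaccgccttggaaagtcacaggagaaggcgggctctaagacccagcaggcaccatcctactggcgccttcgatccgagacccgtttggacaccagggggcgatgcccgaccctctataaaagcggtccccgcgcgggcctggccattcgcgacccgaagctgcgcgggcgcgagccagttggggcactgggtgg
The core occurred 3 times in the Cebpb window, once in that of Klf2 and 0 times in that of Cebpa, and 20.8% of 32851 mouse promoter windows held at least 1 copy. The GC box GGGCGG, the letters bound by SP and KLF proteins, occurred 5 times for Cebpb and 2 times for Klf2, and in 35.7% of windows. Neither TTGCNNAA (the C/EBP palindrome, 10.8% of windows), TTCNNNGAA (the STAT palindrome, 8.3%) nor GAGGAA (a PU.1 core, 28.3%) matched any of the 3 windows on either strand. Of the 10 factors, 7 had an entry in the table, and Spi1, Cebpd and Cebpe had none.

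Per kilobase of exon, 4 factors were abundant in naive neutrophils and 6 were not. In WT blood at the baseline (0h) Spi1 stood at 346 CPM per kb (lowest 231, highest 491), Klf2 at 226 (193 to 254), Cebpb at 214 (69.0 to 347) and Cebpd at 128 (84.0 to 171), and each of these overlapped its neighbour in this order. A gap followed: Cebpe was at 10.9 CPM per kb (6.61 to 17.4) and Runx1 at 3.71 (2.07 to 5.27), neither overlapping the next above it. Cebpa, Irf8, Myb and Gfi1 were lowest, with means of 1.83, 1.14, 0.432 and 0.403 CPM per kb and ranges that overlapped from one to the next. In WT lung at 12 hours the order had a different head: Cebpb stood at 2040 CPM per kb (1110 to 2870), above and not overlapping Klf2 at 728 (350 to 988), and Cebpa, at 4.94 (2.65 to 6.39), overlapped Cebpe at 8.82 (4.34 to 11.3). In all 8 groups the upper 4 places were held by Spi1, Cebpb, Cebpd and Klf2. These lengths are of all annotated exons merged, so a gene with many rarely used exons such as Runx1 (11827 bases) is placed lower than its transcripts would be.

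**Figure D1:**
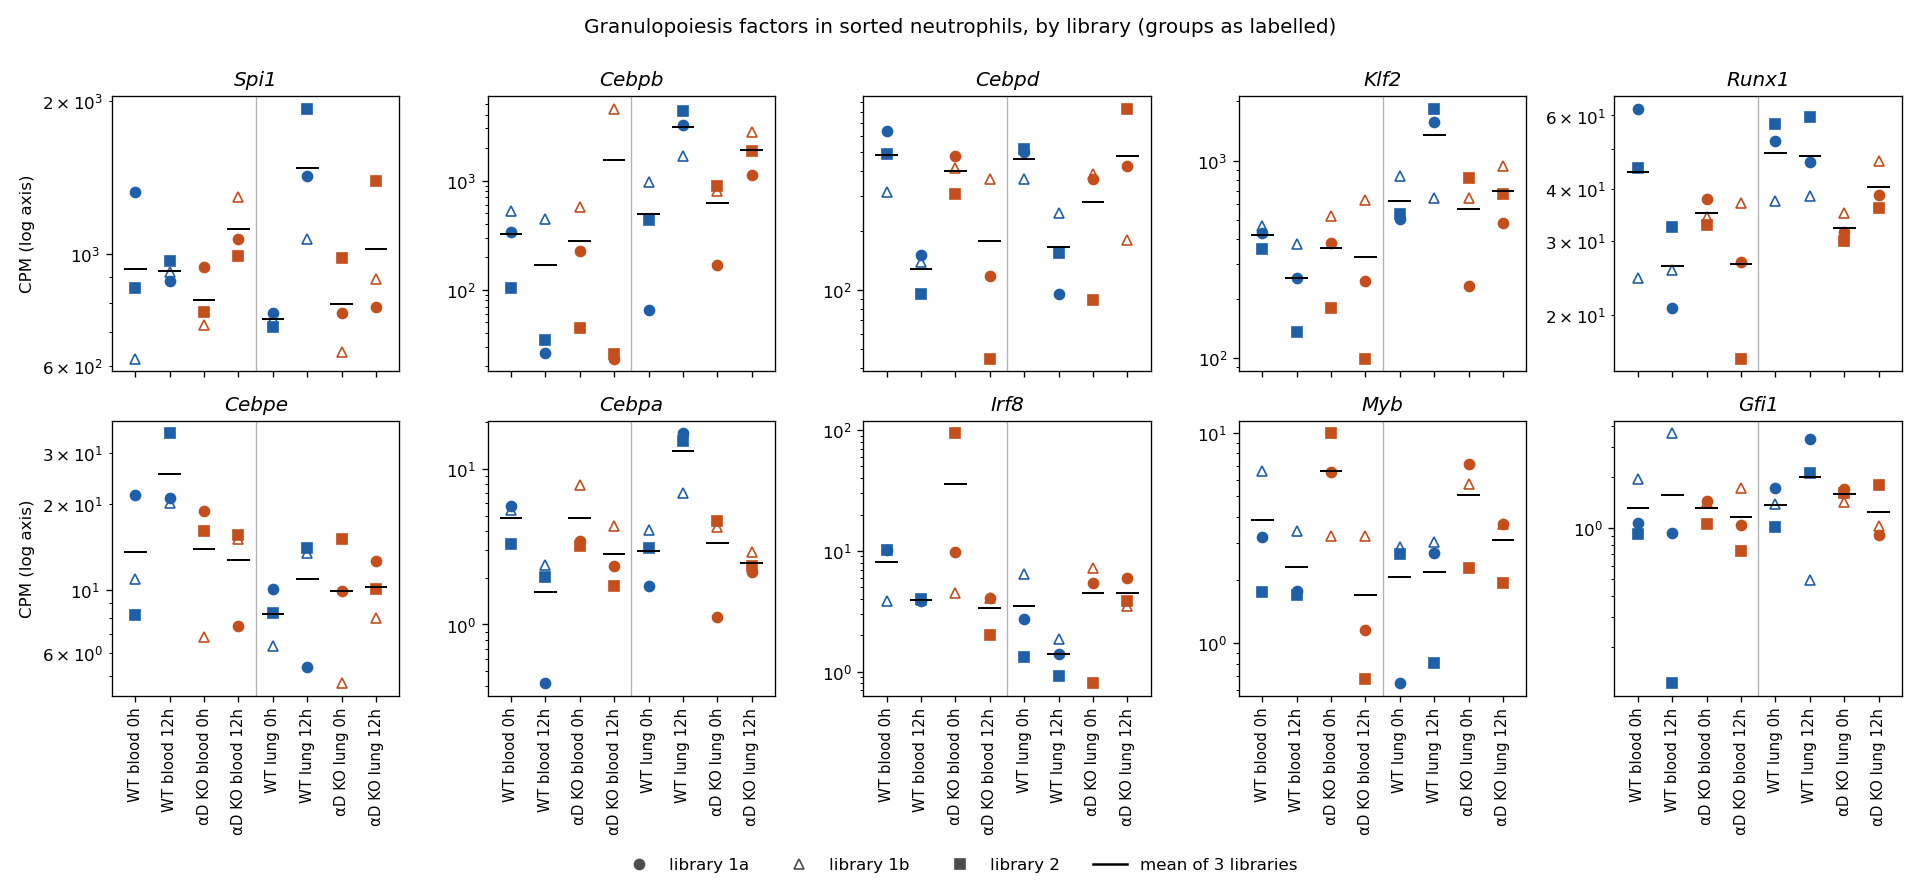
CPM (log axis) of the 10 factors in each of the 24 libraries by labelled group, WT in blue and αD KO in orange; circles, open triangles and squares are libraries 1a, 1b and 2, and bars are means of 3 libraries. In blood at 12 hours Cebpb was 23.3 to 34.4 CPM in libraries 1a and 2 of both genotype labels and 442 and 4560 CPM in the 1b libraries.

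At 12 hours after CLP, edgeR called 2 factors in WT neutrophils with all 3 libraries, Cebpd lower in blood and Cebpa higher in lung. In WT lung DESeq2 and edgeR with the 2 files of the first sample summed also called Cebpb higher and Cebpd lower. A gene was called where edgeR's quasi-likelihood test gave an adjusted p below 0.05 and a log2 fold change beyond 1 in either direction, and all 10 factors passed the filter on low counts in every comparison. In WT blood edgeR called 1 of 10 factors, against 13.5% of the 14625 genes tested, and DESeq2 also called 1, against 21.4%. In WT lung edgeR called 1 of 10, against 9.02% of 14859 genes, and DESeq2 called 3 (Cebpa, Cebpb and Cebpd), against 18.9%. In blood labelled αD KO edgeR called 0, against 8.75% of 14156 genes, and 2 had an unadjusted p below 0.05, against 27.8% of genes, and DESeq2 called 2 (Irf8 and Myb), against 17.6%. In lung labelled αD KO edgeR called 0 factors, against 0% of 17939 genes, and 1 had an unadjusted p below 0.05, against 0.401% of genes, and DESeq2 called 0, also against 0% of genes. The factors' median log2 change was -0.78 in WT blood, 0.46 in WT lung and -0.35 in blood labelled αD KO, beside -0.15, 0.03 and -0.14 over all genes tested. The libraries of the 2 times did not overlap for 2 of 10 factors in WT blood and 4 in WT lung, against 38.0% and 32.1% of genes. In blood and lung labelled αD KO 3 and 2 factors did not overlap, against 33.3% and 3.53%. With libraries 1a and 2 alone, an alternative chosen after seeing the data (2 against 2), edgeR called 4 factors in WT blood, 5 in WT lung and 2 in blood labelled αD KO, against 23.1%, 37.2% and 11.0% of genes.

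**Figure D2:**
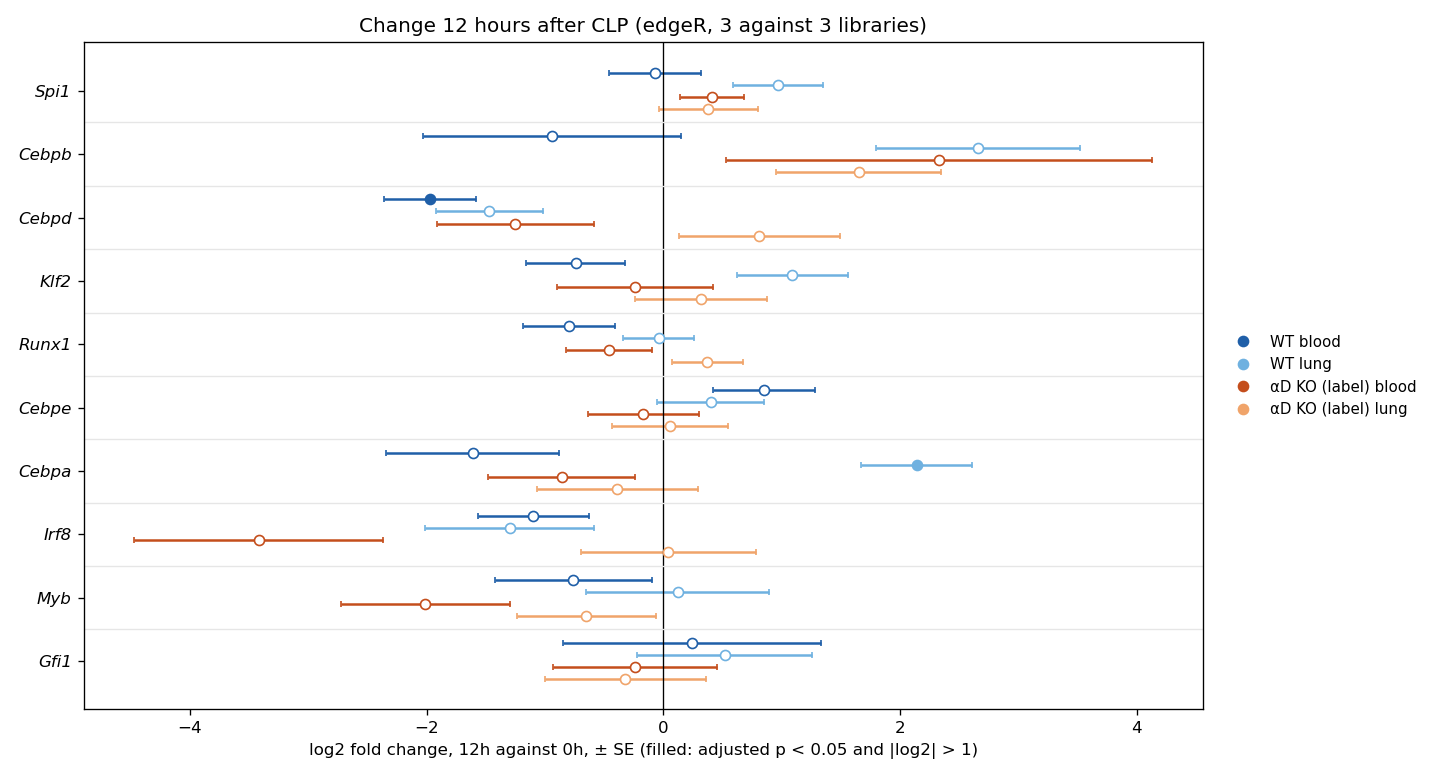
Fitted log2 fold change 12 hours after CLP against 0h (x axis) of each factor (y axis) in the 4 tissue and genotype label combinations, with bars of 1 SE (edgeR, 3 against 3 libraries); filled points are called. Cebpd in WT blood (-1.97) and Cebpa in WT lung (2.14) are filled.

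Cebpd (chromosome 16, 15887286 to 15891031, GRCm38) encodes C/EBPδ, an acute phase factor of mature myeloid cells. In WT blood Cebpd was 639, 315 and 490 CPM at the baseline and 150, 139 and 95.1 CPM at 12 hours, so the groups did not overlap. The log2 fold change was -1.97 (SE 0.39, edgeR adjusted p = 0.0182). The direction held with each library left out (-2.21 to -1.67), but the adjusted p then reached up to 0.407. The call was also lost with all 8 groups in the fit (-1.81, edgeR adjusted p = 0.13) and with no filter on low counts (-1.87, 0.39), while with both 1b libraries left out it held (-2.30, edgeR adjusted p = 0.00479). The 12 monocyte and macrophage markers summed to 1040, 520 and 1110 CPM and to 235, 128 and 274 CPM in the same libraries. In WT lung Cebpd was 503, 367 and 516 CPM at 0h and 95.4, 245 and 154 CPM at 12 hours, again with no overlap, and the log2 difference was -1.47 (SE 0.45, edgeR adjusted p = 0.0773, DESeq2 adjusted p = 0.00729). The monocyte and macrophage markers summed to 724, 612 and 937 CPM and to 261, 260 and 241 CPM there. In blood labelled αD KO the 3 baseline libraries were at 479, 417 and 308 CPM and those at 12 hours at 117, 367 and 44.8 CPM, and library 1b at 12 hours lay among the baseline ones (log2 difference -1.25, SE 0.66, edgeR adjusted p = 0.259). It was called without that library (-2.31, edgeR adjusted p = 0.032) and with libraries 1a and 2 alone (-2.30, 0.0378). Lung labelled αD KO had the opposite order, 363, 387 and 89.3 CPM at 0h and 425, 180 and 830 CPM at 12 hours, but those groups overlapped (0.81, SE 0.68, adjusted p = 1 by edgeR). The 3 libraries named above as lying with the other time point held its lowest and its 2 highest values. The monocyte and macrophage markers summed to 472, 611 and 225 CPM at 0h and 729, 432 and 728 CPM at 12 hours in lung labelled αD KO, and to 885, 642 and 1480 CPM and 128, 145 and 187 CPM in blood labelled αD KO. Their part in the Cebpd values was not tested. Cebpd exons overlap Spidr, a DNA repair gene on the opposite strand at a mean of 97.3 CPM. Since strand use in counting is not stated, reads of such a pair cannot be told apart.

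Cebpa (chromosome 7, 35119293 to 35121928) encodes C/EBPα, the factor of the granulocyte-monocyte progenitor, and was a low-abundance transcript here. In WT lung it was 1.76, 4.02 and 3.10 CPM at 0h, from 49, 70 and 77 reads, and 16.9, 6.98 and 15.2 CPM at 12 hours, from 276, 71 and 282 reads. All 3 libraries at 12 hours lay above all 3 at 0h, with library 1b the least so. The 7 progenitor markers (Kit, Cd34, Flt3, Meis1, Gata2, Mki67 and Top2a) summed to 44.6, 53.9 and 31.7 CPM at 0h and 104, 63.7 and 80.4 CPM at 12 hours in these libraries, also without overlap, and their part in the Cebpa values was not tested. The log2 fold change was 2.14 (SE 0.47, edgeR adjusted p = 0.0316). The library numbers paired the samples in this comparison, and with the number as a block the change was 2.12 with an edgeR adjusted p of 0.067, so the call was lost. With each library left out it was 1.76 to 2.39, and the adjusted p reached up to 0.308, and with all 8 groups in the fit it was 2.28 (edgeR adjusted p = 0.0623). In WT blood Cebpa moved the other way without passing the test, from 5.77, 5.46 and 3.27 CPM to 0.418, 2.40 and 2.01 CPM (-1.61, SE 0.73, edgeR adjusted p = 0.191). Its levels in lung labelled αD KO were 1.12, 4.21 and 4.62 CPM at 0h and 2.19, 2.91 and 2.39 CPM at 12 hours (-0.39, SE 0.68, adjusted p = 1 by edgeR), within the baseline range.

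Cebpb encodes C/EBPβ, the C/EBP of emergency granulopoiesis, and its libraries within a group were far apart. In WT lung it was 65.7, 975 and 431 CPM at 0h and 3230, 1670 and 4320 CPM at 12 hours. Every library at 12 hours was above every library at 0h, and the log2 difference of 2.66 (SE 0.86) had an edgeR adjusted p of 0.0906. DESeq2 gave 2.62 with an adjusted p of 0.00492. Lung labelled αD KO showed the same order, with 167, 801 and 899 CPM at 0h and 1120, 2760 and 1880 CPM at 12 hours, no overlap, and a log2 difference of 1.65 (SE 0.70, adjusted p = 1 by edgeR). Blood was split by library number. In WT blood Cebpb was 340, 522 and 104 CPM at 0h and 26.5, 442 and 34.4 CPM at 12 hours, and in blood labelled αD KO it was 225, 572 and 44.4 CPM at 0h and 23.3, 4560 and 25.7 CPM at 12 hours. The fitted difference was -0.94 (SE 1.09, adjusted p = 0.602) in WT blood and 2.33 (SE 1.80, adjusted p = 0.435) in blood labelled αD KO by edgeR. With libraries 1a and 2 alone these became -2.96 (SE 0.56, adjusted p = 0.0123) and -2.49 (SE 0.70, adjusted p = 0.0701), so the sign in blood labelled αD KO was set by 1 library. Cebpb lies on chromosome 2 from 167688915 to 167690418 and its exons overlap Tmem189 on the opposite strand (mean 143 CPM). The antisense genes that overlap Cebpa, Gfi1, Runx1 and Myb had means of 0.121 to 0.841 CPM.

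Cebpe (chromosome 14, 54710363 to 54712174) encodes C/EBPε and was not called in any of the 12 pairwise comparisons by edgeR or DESeq2 with all 3 libraries. It was 8.18 to 21.5 CPM in WT blood at 0h and 20.1 to 35.2 CPM at 12 hours (log2 difference 0.85, SE 0.43, edgeR adjusted p = 0.237). In WT lung it was 6.37 to 10.1 CPM at 0h and 5.37 to 14.0 CPM at 12 hours (0.40, SE 0.45, adjusted p = 0.632 by edgeR). In both tissues the 0h and 12 hour libraries overlapped.

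Spi1 and Runx1, the broad myeloid and hematopoietic factors, were not called in any of the 12 pairwise comparisons by edgeR with all 3 libraries. Spi1 (chromosome 2, 91082390 to 91115756) lay at 621 to 1930 CPM in all 24 libraries. In WT lung it was 765, 744 and 718 CPM at 0h and 1420, 1070 and 1930 CPM at 12 hours, without overlap, and the log2 difference of 0.97 (SE 0.38) had an edgeR adjusted p of 0.143. It was called at 1.05 with libraries 1a and 2 alone (edgeR adjusted p = 0.0151) and at 1.02 without library 1b at 12 hours (0.028). In WT blood it was 933 ± 358 CPM (SD, n = 3) at 0h and 923 ± 43 CPM at 12 hours. Runx1 (chromosome 16, 92601466 to 92826149) was 15.7 to 62.3 CPM throughout. It was 48.9 ± 10.2 CPM (SD, n = 3) in WT lung at 0h and 48.1 ± 10.6 CPM at 12 hours (log2 difference -0.04, SE 0.30). In WT blood it was 62.3, 24.5 and 45.0 CPM at 0h and 20.7, 25.6 and 32.4 CPM at 12 hours, with overlap (-0.80, SE 0.39, edgeR adjusted p = 0.22). The difference was called at -1.11 with libraries 1a and 2 alone (edgeR adjusted p = 0.045) and at -1.10 without library 1b at 0h (0.0356).

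Irf8 (chromosome 8, 120736358 to 120756694), the factor of the monocyte and dendritic lineages, was low in these cells. In WT blood it was 10.1, 3.87 and 10.2 CPM at 0h and 3.86, 3.92 and 4.01 CPM at 12 hours (log2 difference -1.10, SE 0.47, edgeR adjusted p = 0.173). It was called without library 1b at 0h (-1.44, edgeR adjusted p = 0.0176), with libraries 1a and 2 alone (-1.46, 0.0265) and with at least 10 counts in every library (-1.21, 0.0456). In blood labelled αD KO it was 9.85, 4.52 and 93.8 CPM at 0h and 4.10, 4.05 and 2.03 CPM at 12 hours, without overlap. The log2 difference was -3.42 (SE 1.05, edgeR adjusted p = 0.0768, DESeq2 adjusted p = 0.00183), and without the library at 93.8 CPM it was -1.07 (edgeR adjusted p = 0.291). That library was the one with the high T and NK cell markers, and its 6 dendritic cell markers (Flt3, Zbtb46, Xcr1, Siglech, Cd209a and Clec9a) summed to 123 CPM, against 1.78 to 41.8 CPM in the other 23. Every one of the 6 had counts in each group. Their summed level was 20.8, 41.8 and 27.5 CPM in WT blood at 0h and 1.78 to 6.11 CPM at 12 hours. It was 27.2, 19.5 and 123 CPM and then 3.62 to 4.83 CPM in blood labelled αD KO. In blood at 0h monocyte and macrophage markers summed to 1040, 520 and 1110 CPM (WT) and 885, 642 and 1480 CPM (αD KO label). B cell markers there summed to 1190, 342 and 664 CPM and to 529, 361 and 1270 CPM. At 12 hours the monocyte and macrophage markers were 128 to 274 CPM (WT) and 128 to 187 CPM (αD KO label). The B cell markers were then 44.8 to 202 and 38.4 to 117 CPM. The part of any of these cell types in the Irf8 values was not tested. In bulk samples fewer cells of a type and less RNA per cell cannot be told apart.

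**Figure D3:**
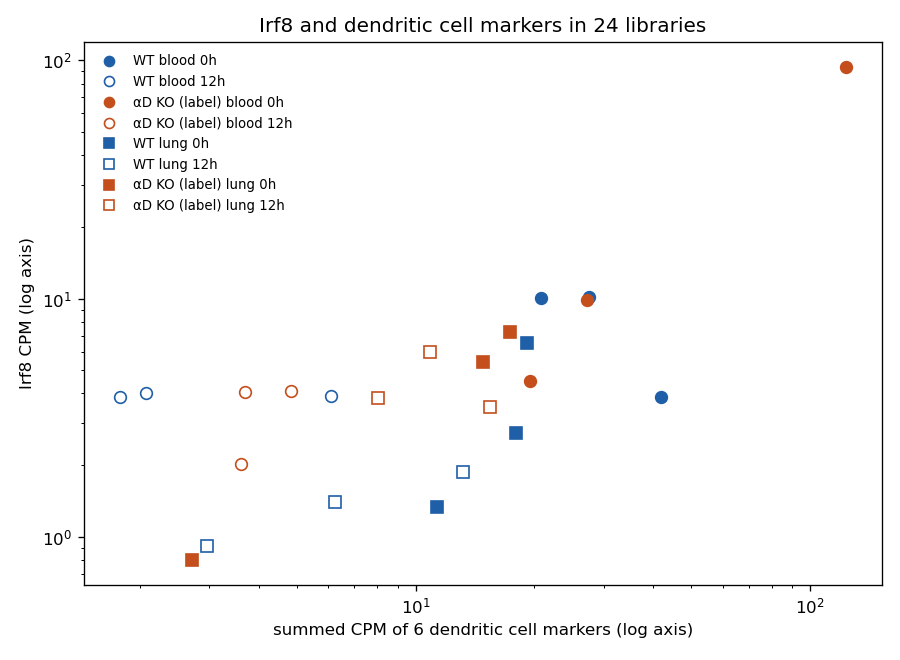
Irf8 CPM (y, log axis) against the summed CPM of 6 dendritic cell markers (x, log axis) in the 24 libraries; circles are blood, squares are lung, filled points are 0h, open points are 12 hours, blue is WT and orange is labelled αD KO. One library labelled αD KO blood 0h lies apart at 93.8 CPM of Irf8 and 123 CPM of the markers.

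Gfi1 and Myb, factors of dividing progenitors, were near the limit of detection. Gfi1 (chromosome 5, 107716657 to 107726036) was 0.122 to 3.6 CPM, from 2 to 66 reads a library, and its log2 difference stayed under 2 SE in every comparison of all 3 libraries. With libraries 1a and 2 alone it was 2.28 (SE 0.77, edgeR adjusted p = 0.0516) for lung against blood in WT at 12 hours. Myb (chromosome 10, 21124935 to 21160984) was 0.645 to 9.96 CPM. In blood labelled αD KO it was 6.55, 3.25 and 9.96 CPM at 0h and 1.16, 3.24 and 0.676 CPM at 12 hours, libraries 1b being almost level. The library at 9.96 CPM is the one with the T and NK cell markers at 313 CPM, and without it the log2 difference was -1.54 (edgeR adjusted p = 0.273). It was called without library 1b at 12 hours (-2.81, edgeR adjusted p = 0.0492) and with libraries 1a and 2 alone (-3.19, 0.0299). The log2 difference was -2.01 (SE 0.71, edgeR adjusted p = 0.115, DESeq2 adjusted p = 0.0494). In WT blood the same values were 3.22, 6.60 and 1.76 CPM and 1.78, 3.43 and 1.70 CPM (-0.76, SE 0.66, edgeR adjusted p = 0.492). The 7 progenitor markers summed to 32.3 to 59.6 CPM at 0h and 23.5 to 50.2 CPM at 12 hours in blood labelled αD KO, and their part in the Myb values was not tested.

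Klf2 (chromosome 8, 72319033 to 72321656) did not pass the edgeR test with time in any group with all 3 libraries. In WT lung it was 505, 834 and 538 CPM at 0h and 1560, 647 and 1830 CPM at 12 hours, where library 1b lay within the baseline range (log2 difference 1.09, SE 0.47, edgeR adjusted p = 0.18). In WT blood it was 430, 469 and 356 CPM at 0h and 254, 378 and 136 CPM at 12 hours (-0.74, SE 0.42, adjusted p = 0.29 by edgeR). With libraries 1a and 2 alone the difference in WT lung was 1.58 (SE 0.26, edgeR adjusted p = 0.00204) and that in WT blood -1.11 (SE 0.34, adjusted p = 0.056). Klf2 was also called in WT lung without library 1b at 12 hours (1.27, edgeR adjusted p = 0.0267).

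Between tissues, 7 of the 10 factors did not overlap in WT neutrophils at 12 hours, where 23.7% of all genes did not and 0.0442% were called by edgeR. Cebpb, Cebpa, Klf2, Spi1 and Runx1 were higher in all 3 lung libraries than in all 3 blood libraries and Irf8 and Cebpe lower, but none of the 10 factors passed the edgeR test with all 3 libraries and the filter on low counts. Without the filter it called Cebpb, Cebpa and Klf2 (adjusted p = 0.000885, 0.00113 and 0.0135). With the files of the first sample summed, edgeR called Cebpa (2.95, adjusted p = 0.0361) and Klf2 (2.64, adjusted p = 0.0493). Cebpb was 26.5, 442 and 34.4 CPM in blood and 3230, 1670 and 4320 CPM in lung, a log2 difference of 4.14 (SE 1.14, edgeR adjusted p = 0.152, DESeq2 adjusted p = 0.000294). With libraries 1a and 2 alone it was 6.90 (SE 0.42, edgeR adjusted p = 0.000277). Cebpa was higher in lung by 2.98 (SE 0.66, edgeR adjusted p = 0.121, DESeq2 adjusted p = 0.000245) and Klf2 by 2.36 (SE 0.52, 0.118 and 0.000191). Irf8 and Cebpe were lower in lung, by -1.46 (SE 0.51, adjusted p = 0.207) and -1.18 (SE 0.46, adjusted p = 0.24) in the edgeR fit, again without overlap. The 10 lung structural markers, of epithelium, endothelium and stroma, summed to 148 to 472 CPM in WT lung at 12 hours and 77.2 to 78.0 CPM in WT blood, and the progenitor markers to 63.7 to 104 and 31.1 to 40.3 CPM. Their part in the tissue differences was not tested.

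By count, edgeR called 0 of 10 factors between lung and blood at 12 hours in WT, against 0.0442% of 13590 genes, and 6 had an unadjusted p below 0.05, against 18.1% of genes, and DESeq2 called 3 (Cebpb, Cebpa and Klf2), against 8.28%. Libraries 1a and 2 alone gave 5 (those 3, Irf8 and Cebpe), against 28.2%. For libraries labelled αD KO at 12 hours edgeR called 0, against 0.0548% of 14592 genes, and DESeq2 0, against 10.2%. There 0 factors had an unadjusted p below 0.05, against 22.2% of genes, and 0 did not overlap, against 27.8%. Libraries 1a and 2 alone gave 3 (Cebpb, Cebpd and Klf2), against 34.3%, with Cebpb at a log2 difference of 5.95 (SE 0.41, edgeR adjusted p = 2.1e-05) in place of 0.34 (SE 1.57) with library 1b. At the baseline edgeR called 0 factors in WT and 0 in libraries labelled αD KO, in both against 0% of genes. In WT 0 factors had an unadjusted p below 0.05, against 2.54% of genes, and under the αD KO label 1 did (Irf8), against 2.91%. DESeq2 called 0 factors in each, against 0.294% and 0.568% of genes. The tissue by time interaction, which asks whether the change with CLP differed between lung and blood, called 0 factors in WT (3 at an unadjusted p below 0.05, against 5.49% of genes) and 0 in αD KO labels (1, against 10.6%) by edgeR, where 0% of genes were called in each. By DESeq2 it called 1 in WT (Cebpa), against 0.438%, and 0 in αD KO labels, against 1.3%. In WT the interaction was 3.73 for Cebpa (SE 0.89, edgeR adjusted p = 0.876, DESeq2 adjusted p = 0.00949), 3.73 for Cebpb (SE 1.55) and 1.81 for Klf2 (SE 0.65), and these 3 were called with libraries 1a and 2 alone, against 7.41% of genes.

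Between genotype labels, no factor was called by edgeR in blood or lung at either time with all 3 libraries and the filter on low counts. Without the filter Cebpb was called in blood at 12 hours (3.25, edgeR adjusted p = 3.82e-10), where its library 1b under the αD KO label was at 4560 CPM. This sign did not hold: with the filter, leaving out each library gave -2.81 to 5.80. Libraries 1a and 2 alone gave -0.25 (edgeR adjusted p = 0.613). With all 3 libraries and the filter, the nearest to a call was Cebpa in lung at 12 hours. It was 16.9, 6.98 and 15.2 CPM in WT and 2.19, 2.91 and 2.39 CPM under the αD KO label. The progenitor markers summed to 104, 63.7 and 80.4 CPM and to 32.6, 55.6 and 37.9 CPM in the same libraries, and their part was not tested. The Cebpa groups did not overlap, and the log2 difference was -2.29 (SE 0.48, edgeR adjusted p = 0.598, DESeq2 adjusted p = 0.00428). Leaving out each library gave -2.62 to -2.19, and only without WT library 1b was the edgeR adjusted p below the threshold (0.0399). Cebpd and Irf8 were higher under the αD KO label, by 1.68 (SE 0.65) and 1.78 (SE 0.59), each with an edgeR adjusted p of 0.598. Irf8 was 1.40, 1.87 and 0.916 CPM in WT and 5.99, 3.50 and 3.84 CPM under the αD KO label, and the dendritic cell markers summed to 2.96 to 13.2 and 8.05 to 15.4 CPM in the same groups. The monocyte and macrophage markers summed to 261, 260 and 241 CPM in WT and 729, 432 and 728 CPM under the αD KO label, without overlap, and their part in the Cebpd and Irf8 values was not tested. Libraries 1a and 2 of the αD KO lung 12h label are those that lay with the baseline libraries above. Without 1a the Cebpa difference was -2.34 and without 2 it was -2.37, both with an edgeR adjusted p of 1.

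In numbers, edgeR called 0 factors between genotype labels in lung at 12 hours, against 0% of 16764 genes. There 3 had an unadjusted p below 0.05, against 8.29% of genes, and DESeq2 called 1, against 1.15%. DESeq2 gave no adjusted p for Irf8 (1.68, unadjusted p = 0.00716), Gfi1 and Myb in this comparison, so it could not call them. Libraries 1a and 2 alone gave 5 (Cebpa, Cebpb and Klf2 lower and Cebpd and Irf8 higher), against 30.1%, and its libraries labelled αD KO are the pair that lay with the baseline ones. In blood at 12 hours edgeR called 0 (1, Cebpe, at an unadjusted p below 0.05, against 4.01% of genes), against 0% of 12596 genes, and DESeq2 0, against 0.127%. Cebpe was 20.9, 20.1 and 35.2 CPM in WT and 7.46, 15.1 and 15.6 CPM under the αD KO label, without overlap (-0.93, SE 0.39, edgeR adjusted p = 0.962). At 12 hours 2 factors did not overlap between labels in lung, against 10.9% of genes, and 2 in blood, against 9.76%. At the baseline edgeR and DESeq2 called 0 factors in blood (0 at an unadjusted p below 0.05), against 0.0115% and 0.0346% of genes, and 0 in lung (0), against 0% and 0.0329%. The genotype by time interaction called 0 factors in blood (0 at an unadjusted p below 0.05; 0 by DESeq2), against 0% and 0.00505% of genes. In lung it called 0 (2, Cebpa at -2.50 and Cebpd at 2.40; 0 by DESeq2), against 0% and 1.51% of genes called and 10.5% at an unadjusted p below 0.05, and libraries 1a and 2 alone called Cebpd (3.71), against 13.2%. Of the 4 libraries labelled αD KO in that fit, 3 lay with the other time point.

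**Figure D4:**
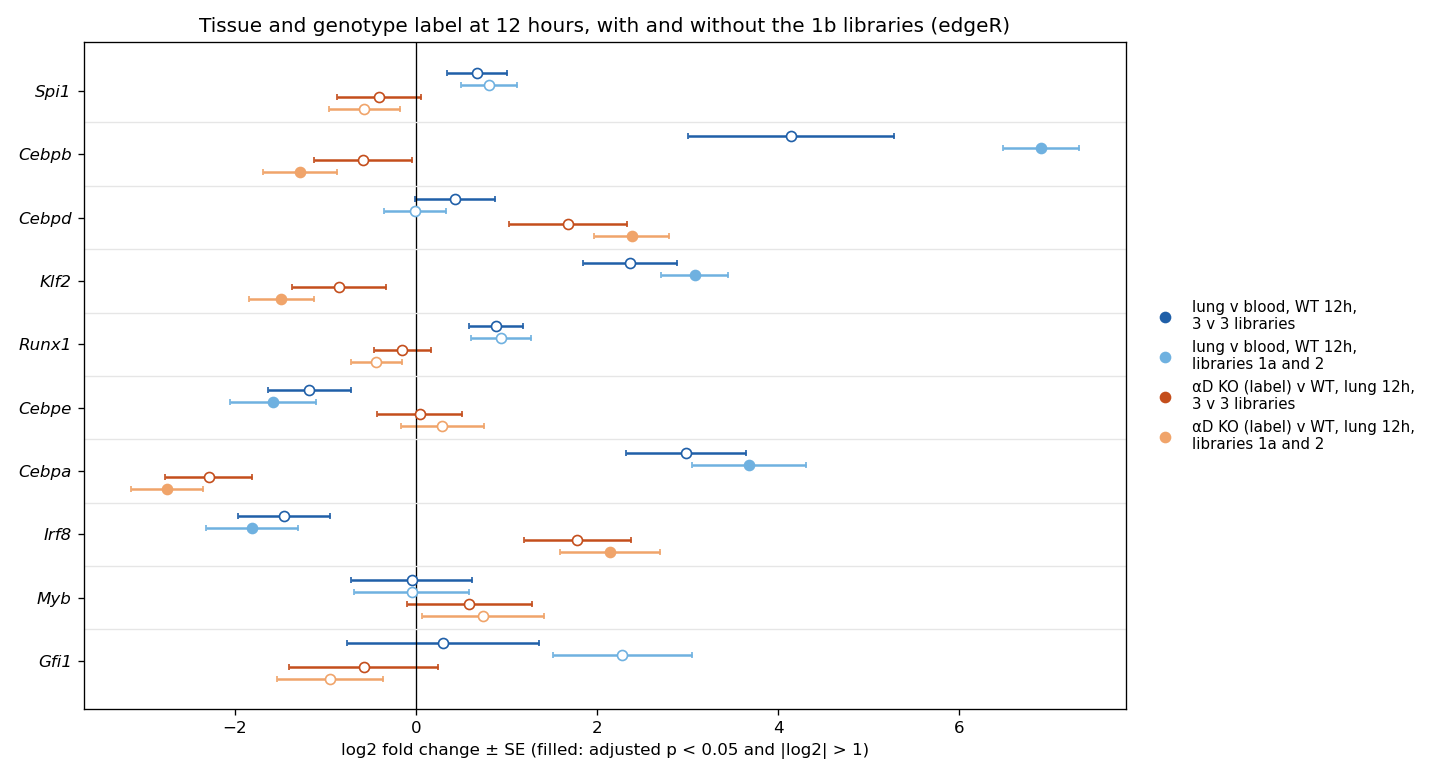
Fitted log2 fold change (x axis, bars of 1 SE, edgeR) of each factor (y axis) at 12 hours for lung against blood in WT (blue) and for the αD KO label against WT in lung (orange), with all 3 libraries (dark) and with libraries 1a and 2 alone (light); filled points are called. No dark point is filled; Cebpb between tissues is at 4.14 with all libraries and at 6.90 with libraries 1a and 2.

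The late granule genes are a list of 12 genes of the late, C/EBPε stage of maturing neutrophils. The list also holds genes of other proteins, such as the receptor gene Ltb4r1, and dependence of each on C/EBPε was not tested. Like the other lists, it was chosen with earlier results of these data known, so its shares are a description. The genes were called higher for 8 of 12 in WT blood and 11 of 12 in WT lung, with 0 called lower. Of all genes 13.5% and 9.02% were called. Their median log2 change was 4.24 and 4.34, beside -0.15 and 0.03 over all genes. In WT blood Lcn2, the siderophore-binding lipocalin, rose by 5.29 (SE 0.51, edgeR adjusted p = 0.00205), Serpinb1a, an inhibitor of neutrophil elastase, by 5.51 (SE 0.82, 0.00713) and Ltb4r1, the leukotriene B4 receptor, by 2.78 (SE 0.47, 0.0113). In WT lung Lcn2 rose by 5.66 (SE 0.63), the chitinase-like protein gene Chil3 by 5.38 (SE 0.61) and Serpinb1a by 4.28 (SE 0.49), with edgeR adjusted p values of 0.00492, 0.00504 and 0.00504. In blood labelled αD KO 3 of 12 were called higher (Lcn2 3.51, Ltb4r1 1.74 and the collagenase gene Mmp8 2.08), against 8.75% of all genes, and the median was 2.13, beside -0.14 over all genes. DESeq2 called 11 of 12 higher in WT blood, 11 in WT lung and 6 in blood labelled αD KO, against 21.4%, 18.9% and 17.6%. In lung labelled αD KO edgeR and DESeq2 called 0 of 12 (0 at an unadjusted p below 0.05), as they did 0% of all genes, and the median was -0.09. The genotype by time interaction called 0 of the 12 by edgeR in lung (9 at an unadjusted p below 0.05, where 10.5% of all genes were, median -4.26), and DESeq2 called 7 lower, against 1.51% of all genes. At 0h the 12 were at a median log2 difference of 3.31 in lung under the αD KO label against WT, with 8 at an unadjusted p below 0.05, where 1.86% of all genes were, and 0 called by edgeR or DESeq2. The lung values under this label include the 3 libraries labelled αD KO that lay with the other time point. For the genotype by time interaction in blood edgeR and DESeq2 called 0 of the 12 (median -2.21). There 0 had an unadjusted p below 0.05, where 1.17% of all genes did. Of the 8 early granule genes, made at the promyelocyte stage, edgeR called only Fcnb (ficolin B) with time, in WT lung at 3.22 (SE 0.73, edgeR adjusted p = 0.0338), and 4 to 6 of the 8 had enough counts to be tested in the 4 comparisons of time. DESeq2 called 1 higher and 1 lower in WT blood and in WT lung, and 2 lower in blood labelled αD KO, against 21.4%, 18.9% and 17.6% of all genes.

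Of the 10 receptor genes known as targets of PU.1 and C/EBP factors, edgeR called 3 higher and 2 lower in WT blood, and 1 higher and 2 lower in both WT lung and blood labelled αD KO, where 13.5%, 9.02% and 8.75% of all genes were called. Cd14, the lipopolysaccharide co-receptor, rose in WT blood (3.39, SE 0.62), WT lung (4.97, SE 0.96) and blood labelled αD KO (4.41, SE 0.55), with edgeR adjusted p values of 0.014, 0.0221 and 0.00521. Csf1r and Csf3r, the receptors for M-CSF and G-CSF, fell in the same 3 comparisons, Csf3r by -2.58 (SE 0.51), -1.81 (SE 0.46) and -2.37 (SE 0.41) with edgeR adjusted p values of 0.0182, 0.0478 and 0.0146. Itgam (1.81) and Csf2rb (1.42) rose in WT blood. DESeq2 also called both in WT lung (1.14 and 1.21, adjusted p = 0.0105 and 0.000488) and Csf2rb in blood labelled αD KO (1.11, adjusted p = 0.0101). Csf1r is also among the 12 monocyte and macrophage markers, whose summed level was 520 to 1110 CPM in WT blood at 0h and 128 to 274 CPM at 12 hours. Its part in the Csf1r values was not tested.

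Among trafficking genes linked to KLF2, Thbd (thrombomodulin) and Itgb7 (integrin β7) fell in WT blood, by -3.51 (SE 0.43) and -3.20 (SE 0.55), with edgeR adjusted p values of 0.00378 and 0.012. In blood labelled αD KO Itgb7 and Thbd fell, by -3.45 and -3.04 (edgeR adjusted p = 0.0012 and 0.0192). Neither was called in either lung comparison by edgeR, but Itgb7 was called in WT lung by DESeq2 (-2.24, adjusted p = 0.00375), where edgeR gave -2.23 (adjusted p = 0.0683). B cells also carry some of these transcripts, and the 8 B cell markers summed to 342 to 1190 CPM at 0h and 44.8 to 202 CPM at 12 hours in WT blood. Their part was not tested.

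Among 46 other regulators of the myeloid lineage, edgeR called 4 higher and 2 lower in WT blood, 4 higher and 0 lower in WT lung, and 4 higher and 1 lower in blood labelled αD KO. These counts lay near the 13.5%, 9.02% and 8.75% of all genes called. DESeq2 called 4 higher and 7 lower in WT blood, 8 higher and 1 lower in WT lung, and 4 higher and 8 lower in blood labelled αD KO. It called 21.4%, 18.9% and 17.6% of all genes. Id2, an inhibitor of helix-loop-helix factors, rose by 3.79 (SE 0.56), 4.40 (SE 0.53) and 4.34 (SE 0.57) in these 3 comparisons, with edgeR adjusted p values of 0.00693, 0.00508 and 0.00545. Klf13, another Krüppel-like factor, rose by 1.35, 2.00 and 1.72. Hif1a, the oxygen-regulated factor, rose in both blood comparisons (1.57 and 1.92) and Id1 in WT lung (1.81). Runx2, a relative of Runx1, fell in both blood comparisons (-1.96 and -1.63), and Irf1 in WT blood (-1.78). DESeq2 also called Hif1a (2.63, adjusted p = 0.000723) and Runx2 (-1.10, adjusted p = 0.0355) in WT lung and Irf1 in blood labelled αD KO (-1.07, adjusted p = 0.0311). The medians of the list were -0.43, 0.37 and -0.58.

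**Figure D5:**
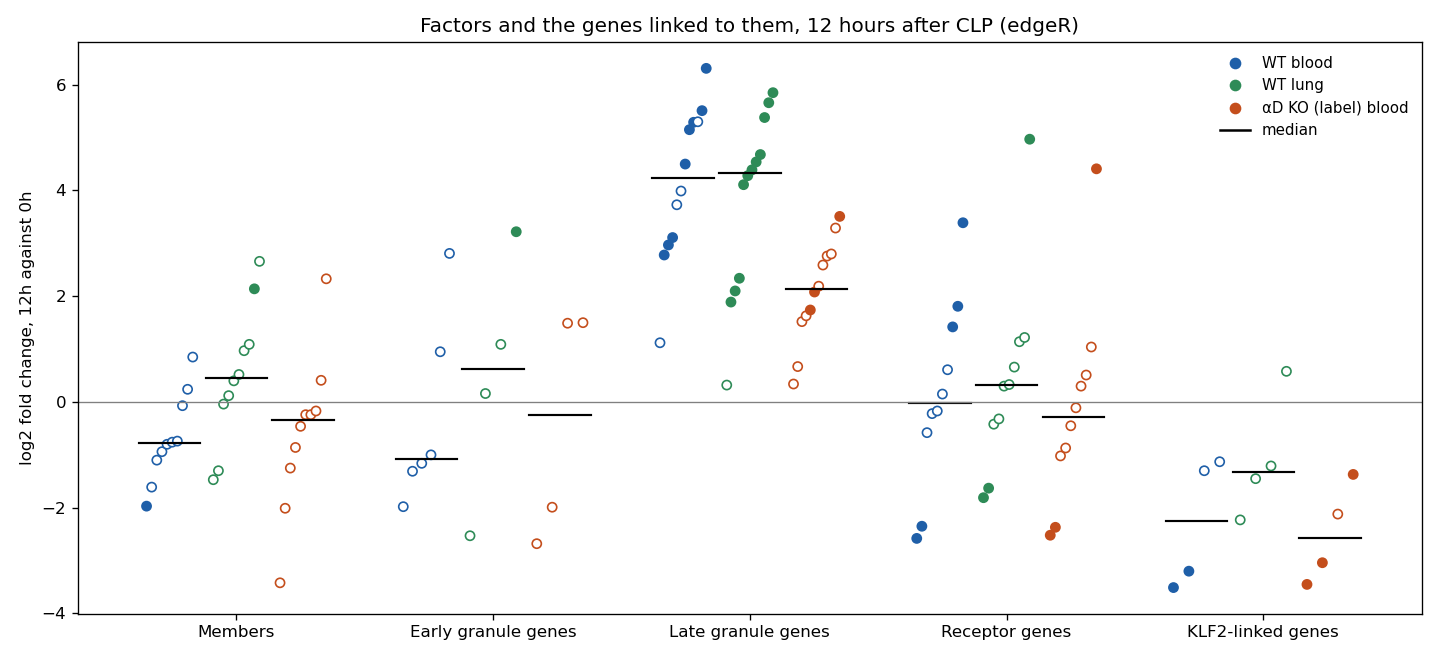
Fitted log2 fold change 12 hours after CLP against 0h (y axis, edgeR) of the factors and of 4 lists of linked genes (x axis) in WT blood, WT lung and blood labelled αD KO, 1 point a gene, filled where called, bars at the median. The late granule genes have medians of 4.24, 4.34 and 2.13 and the factors -0.78, 0.46 and -0.35.

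Over the 24 libraries the genes most like each factor were found by Pearson's r of log2(CPM + 1), given for description with no test, among genes with a mean of at least 5 CPM, which the factors Cebpa (mean 4.49 CPM), Myb (3.36) and Gfi1 (1.44) did not reach. Cebpb was followed by Cdk13, Cmip and Kdm1a (r = 0.95 for each), and with group means removed r was 0.95, 0.93 and 0.92, so the likeness lay between libraries of a group. Cebpd was most like Retreg2 (0.96), Mia2 (0.95) and Rufy1 (0.94). Klf2 was most like Map7d1 (0.93), Spen (0.91) and Arf6 (0.90), and Spi1 was most like Rhog (0.92), Rab4b (0.91) and Ppp1r18 (0.89). Irf8 was most like H2-DMb1 (0.92), a gene of antigen-presenting cells, Tifab (0.87) and Gzma (0.87), a cytotoxic lymphocyte protease. Runx1 (Slco3a1 0.83, Ncoa3 0.81 and Ppm1d 0.79) and Cebpe (Ugdh 0.80, Tspan32 0.79 and Golph3l 0.79) had weaker partners. The 24 points share groups, depth and library number, so these values cannot be read as 24 independent observations.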

How the data were processed

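RNA of sorted neutrophils was made into SMART-Seq v4 and Nextera XT libraries and sequenced by the authors. Per the study's methods and the submitters' processing notes, reads were trimmed with Trimmomatic 0.36 and aligned to GRCm38 (mm10) with STAR 2.5.2b, and unique reads in exons were counted. The strand setting and the counter's name are not given in the sources used here. The authors deposited raw counts per gene, 1 file for each of 24 libraries. GENCODE M21 gave the same position for 9 of the 10 members. The 10 members and all gene lists were chosen with earlier results of these data known.

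Counts were tested with edgeR 4.0.16 (TMM factors, filterByExpr, quasi-likelihood F test with Benjamini-Hochberg adjustment) in R 4.3.3 on the 2 groups compared, or the 4 of an interaction, over all genes kept. DESeq2 1.42.0 (Wald test) was run on the same genes. It gave no adjusted p, and so no call, for Irf8, Gfi1 and Myb between genotype labels in lung at 12 hours. The same held for Cebpb with time in blood labelled αD KO and between genotype labels in blood at 12 hours. Gfi1 also had none in the tissue by time interactions. The standard error is the log2 fold change divided by the root of F. Each count file was treated as 1 library. The 2 files of a sample differed by far more than sampling noise (chi-square per degree of freedom 63.5 to 328.5). That cannot show whether they are separate replicates. The code was tested on simulated data. Named genes were the 10 members, the 3 genes most like each member with a mean of at least 5 CPM, and at most 3 called genes per list, direction and comparison by smallest adjusted p; 1 gene of the KLF2-linked list is not reported here. Libraries with a shared number deviated together from their group means (r over 0.1 for each number) in 9 of 12 pairwise comparisons, but not between times in lung labelled αD KO, between genotype labels in lung at 12 hours or between tissues under the αD KO label at 12 hours. Alternatives were other normalization, filters, tools, samples in the fit, summed files, each library left out, a replicate block and libraries 1a and 2 alone.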

Additional observations from a re-analysis of the deposited data

How the results depend on the processing

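RLE normalization in place of TMM moved the median log2 fold change of all genes by -0.10 to 0.07 over the 12 pairwise comparisons and changed none of the 16 counts of called factors. With all 8 groups in the fit 0 factors were called in any comparison, so the calls in WT blood and WT lung were lost. With no filter on low counts 0 factors were called in WT blood, 2 in blood labelled αD KO, 1 between genotype labels in blood at 12 hours and 3 between tissues in WT at 12 hours. With at least 10 counts in every library 2 were called in WT blood and 2 in WT lung. DESeq2 called 3 in WT lung, 2 in blood labelled αD KO, 1 between genotype labels in lung at 12 hours, 3 between tissues in WT at 12 hours and 1 for tissue by time in WT. With the files of sample 1 summed (2 against 2), 3 were called in WT lung and 2 between tissues in WT at 12 hours. With the replicate block, 0 were called in WT lung and no other count changed. Libraries 1a and 2 alone, added after seeing the data, gave 4 in WT blood, 5 in WT lung, 2 in blood labelled αD KO, 5 between genotype labels in lung at 12 hours, 5 and 3 between tissues at 12 hours in WT and under the αD KO label, 1 for genotype by time in lung and 3 for tissue by time in WT. With each library left out, the counts ranged from 0 to 3 in WT blood, 0 to 4 in WT lung, 0 to 2 in blood labelled αD KO, 0 to 1 between genotype labels in lung at 12 hours, 0 to 4 between tissues in WT and 0 to 1 under the αD KO label at 12 hours, and were 0 elsewhere. The higher counts came with a 1b library left out. No tested change of a factor with an unadjusted p below 0.05 reversed its direction under any alternative, and 48 of the values became called and 13 lost a call. Over all genes DESeq2 called 3135, 2810 and 2496 genes in WT blood, WT lung and blood labelled αD KO, against 1975, 1340 and 1238 by edgeR, and libraries 1a and 2 alone 3201, 5299 and 1558. Of the 46 other regulators DESeq2 called 11, 9 and 12 in these comparisons, against 6, 4 and 5 by edgeR, of the late granule genes 6 against 3 in blood labelled αD KO, and of the receptor genes 5 against 3 in WT lung; libraries 1a and 2 alone gave 13 and 19 of the regulators in WT blood and lung and 10 late granule genes in blood labelled αD KO. The cause of these differences was not tested. Counts of reads limit Gfi1, Myb, Cebpa and Irf8, which had as few as 2, 11, 8 and 13 reads in a library.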
